A study of Mus musculus with 29 samples.

Results

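Ccl2, Ccl7, Ccl8 and Ccl12 encode 4 chemokines that attract monocytes and related leukocytes, and they were followed here through brain and blood cells of mice after stroke. The genes were chosen by name and are 4 of the 27827 genes named in the deposited tables. Gene expression was measured by Drop-seq, in which single cells are captured in droplets with barcoded beads, in 29 libraries from C57BL/6J mice that had sham surgery or a stroke from blocking the middle cerebral artery for a time. The 18 brain libraries held sorted endothelial cells, microglia and CD45high leukocytes, each from 4 to 5 pooled hemispheres dissociated with papain and transcription inhibitors, and the 11 blood libraries held leukocytes pooled from 2 mice. The study compared brain and blood cells in the acute and the later phase of stroke, in young and in aged animals.

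Young animals were males of 8 to 10 weeks, with 4 brain libraries each of sham at day 2, stroke at day 2 and stroke at day 14, and with 4, 4 and 3 blood libraries of the same groups. The 6 aged libraries, all from brain of animals of 17 to 20 months, were 1 male and 1 female sham pool at day 2, a male and 2 female stroke pools at day 2, and 1 female stroke pool at day 14. Age and sex therefore overlap in part. All shams were taken at day 2, so stroke at day 14 against sham combines stroke with time after surgery, and both stroke groups were set against the same 4 young shams.

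CC chemokines are small secreted proteins with a pair of adjacent cysteines near the start of the mature protein, and they guide cells that carry matching receptors. Ccl2, Ccl7 and Ccl12 act on the receptor Ccr2, through which inflammatory monocytes leave the bone marrow and enter injured tissue, while mouse Ccl8 is known mainly as a ligand of Ccr8. In the brain, microglia are the resident macrophages of the parenchyma, border-associated macrophages lie in the meninges and around vessels, and monocyte-derived cells arrive from blood after injury.

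The 4 genes lie in a cluster on the plus strand of chromosome 11 in the GRCm38 mouse assembly, each with 3 exons. Ccl2 (ENSMUSG00000035385.5) spans chr11:82035571-82037453, Ccl7 (ENSMUSG00000035373.2) spans chr11:82045712-82047525, Ccl12 (ENSMUSG00000035352.3) spans chr11:82101845-82103400 and Ccl8 (ENSMUSG00000009185.2) spans chr11:82115185-82116799. From each of these 4 genes to the next of them in that order are 8258, 54319 and 11784 bases, with any other genes between them not considered. The following 60 coding bases around the cysteine pair are shown because they carry the feature that names the family and show how alike the 4 genes are; they are exonic, run 5′ to 3′, come from the GENCODE transcripts of that assembly, and have the codons of the adjacent cysteines in capitals.
Ccl2: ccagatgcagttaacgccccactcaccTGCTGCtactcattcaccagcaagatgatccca
Ccl7: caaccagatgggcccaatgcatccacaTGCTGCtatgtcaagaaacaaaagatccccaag
Ccl12: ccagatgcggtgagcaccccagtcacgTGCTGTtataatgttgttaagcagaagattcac
Ccl8: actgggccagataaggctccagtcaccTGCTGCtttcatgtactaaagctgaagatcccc

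Over the coding bases that aligned without gaps, 290 to 313 per pair, the genes were 65.9% to 73.5% identical; the coding sequence of Ccl2, at 447 bases, is longer than the 294 to 315 of the others, and its extra bases are left out. The longest stretch that any pair of transcripts shared exactly was 11 to 23 bases, and within the last 300 bases, near which Drop-seq reads begin, it was 8 to 13 bases. In the windows above the pair of codons is written alike in Ccl2, Ccl7 and Ccl8, and Ccl12 has another last base in it.

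The libraries held 106977 cells in all, with 1143 to 6328 cells and 819438 to 5855047 summed counts per library and a median of 320.8 to 1363.2 counts per cell. Levels are in CPM, a gene's counts divided by all counts of the summed cells of a type in a library and scaled by the usual constant, and a library entered only with at least 20 cells of the type. Fold changes come from fits with a further scaling between libraries (TMM), which CPM lack. A fold therefore need not equal the ratio of the mean levels given beside it. Of 106624 barcode sequences, 345 occurred in more than 1 library. The young and aged brain tables contained all 4 genes, and in the blood table only Ccl2 was analysed. Cell types were the authors' codes. The 7 microglial markers summed to 14804 CPM in the code Mg (microglia) and to 749 in MdC (monocyte-derived cells), whose 6 monocyte markers summed to 35051. In the code BAM (border-associated macrophages) the 6 markers of that type summed to 10822 CPM, against 882 in MdC and 41.2 in Mg, but the monocyte markers were higher still in it, at 15366. The 7 endothelial markers summed to 21316 CPM in the code EC (endothelial cells).

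In a pair of young libraries a cell type stood apart. Microglia of stroke day 2 replicate 3 were 58 cells with microglial markers at 817 CPM, against 11707 to 13830 in the other 3 libraries of that group, and with monocyte markers at 4277 CPM, against 520 to 1091. Border-associated macrophages of sham replicate 4 were 52 cells with their own markers at 2174 CPM, against 11856 to 13514 in the other shams. Where leaving out either library changed a call, the value without it is given beside the result. The young brain libraries also fell into 5 with a median mitochondrial share of 0.235% to 0.559% per cell and 7 with 1.675% to 3.376%, a split that crosses the groups (1 sham, 2 stroke day 2 and 2 stroke day 14 libraries in the lower set).

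In microglia, Ccl12 rose 12.8-fold and Ccl2 5.83-fold at day 2 after stroke. Ccl7 was called higher too, but it was scarce in sham, at 2.58 CPM pooled, so no fold is given for it. At day 14 edgeR called Ccl12 above sham but not Ccl2 or Ccl7. Ccl12 stood at 177, 227, 210.3 and 129 CPM in sham replicates 1 to 4, at 1908, 1905, 259.9 and 4062 CPM in stroke day 2, and at 847, 470.4, 1035 and 876 CPM in stroke day 14. Every stroke library was above every sham library, and the lowest day 2 library was replicate 3, the library of 58 cells. In edgeR's quasi-likelihood test the log2 change at day 2 was 3.68 ± 0.63 (SE, 4 against 4 libraries) with an adjusted p of 0.00131, and at day 14 it was 2.57 ± 0.61 with an adjusted p of 0.014.

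Microglial Ccl2, the prototype of these monocyte attractants, stood at 113, 115, 87.3 and 80.1 CPM in sham, at 284, 204, 1058 and 789 CPM in stroke day 2 and at 147.8, 70.9, 194 and 146 CPM in stroke day 14. The day 2 libraries lay above all shams, whereas the day 14 libraries overlapped them. The log2 change at day 2 was 2.54 ± 0.46 (edgeR adjusted p = 0.00154), and at day 14 it was 0.96 ± 0.44 with an adjusted p of 0.147. Ccl7 was scarce in microglia, with 0.645, 4.74, 3.63 and 1.24 CPM in sham, 23.2, 13.7, 85.8 and 118 CPM in stroke day 2 and 6.77, 5.99, 0 and 4.28 CPM in stroke day 14. Its day 2 libraries did not overlap the others, and its change was 4.62 ± 0.93 on the log2 scale (edgeR adjusted p = 0.00406). Sham and day 14 levels were so low that Ccl7 entered the test through its day 2 libraries. Its call therefore adds no support, and the size of this change is uncertain. At day 14 the change of Ccl7 from sham was 1.16 ± 1.01 (edgeR adjusted p = 0.455).

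Thus 3 of 3 tested genes were called higher in microglia at day 2, where 31.2% of all tested genes were called in either direction, and 1 of 3 at day 14, where 14.1% were (2 of the 4 genes with DESeq2, with no low-count filter, with the mitochondrial share as a term or with only the compared groups in the fit). Ccl7, 1 of the 3 at day 2, entered through the libraries where it was high, so its call adds nothing to that count. Ccl8 had too few counts in microglia and in monocyte-derived cells to be tested over time; in microglia it stood at 0 to 0.422 CPM in sham, at 0 to 37.3 CPM in stroke day 2 and at 0 to 22.6 CPM in stroke day 14. Without stroke day 2 replicate 3 the 3 genes stayed called at day 2, with log2 changes of 2.35 for Ccl2, 4.62 for Ccl7 and 4.03 for Ccl12. From day 2 to day 14 Ccl2 fell by 1.59 ± 0.45 and Ccl7 fell by 3.46 ± 0.86 on the log2 scale (edgeR adjusted p = 0.049 and 0.0347; 7.16% of genes called), and Ccl12 had -1.11 ± 0.58 (adjusted p = 0.292). As Ccl7 entered the test through its day 2 libraries, the call of its fall adds no support. Neither fall was called with no low-count filter or with only the compared groups in the fit, and that of Ccl2 was not called with rounding up per cell or without the 5% of cells with the most counts. The adjusted p with 1 library left out ranged from 0.0134 to 0.242 for Ccl2 and from 0.0162 to 0.245 for Ccl7, with the highest values without stroke day 2 replicate 4, and they were 0.106 and 0.0537 without stroke day 2 replicate 3 and 0.0609 and 0.0512 without sham replicate 4. Without stroke day 2 replicate 3 Ccl12 was called, at -1.47 (adjusted p = 0.0321).

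Within the 2 sets of libraries by mitochondrial share the microglial Ccl12 ratio of stroke day 2 to sham was 3.52 (higher share) and 3.43 (lower share) on the log2 scale, and that of Ccl7 was 4.99 and 4.84. Ccl2 had 3.29 and 1.11. At day 14 Ccl12 had 2.34 and 1.90, and Ccl2 had 0.85 and -0.05. The lower set has 1 sham library, so these are ratios of means with no test.

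**Figure D1:**
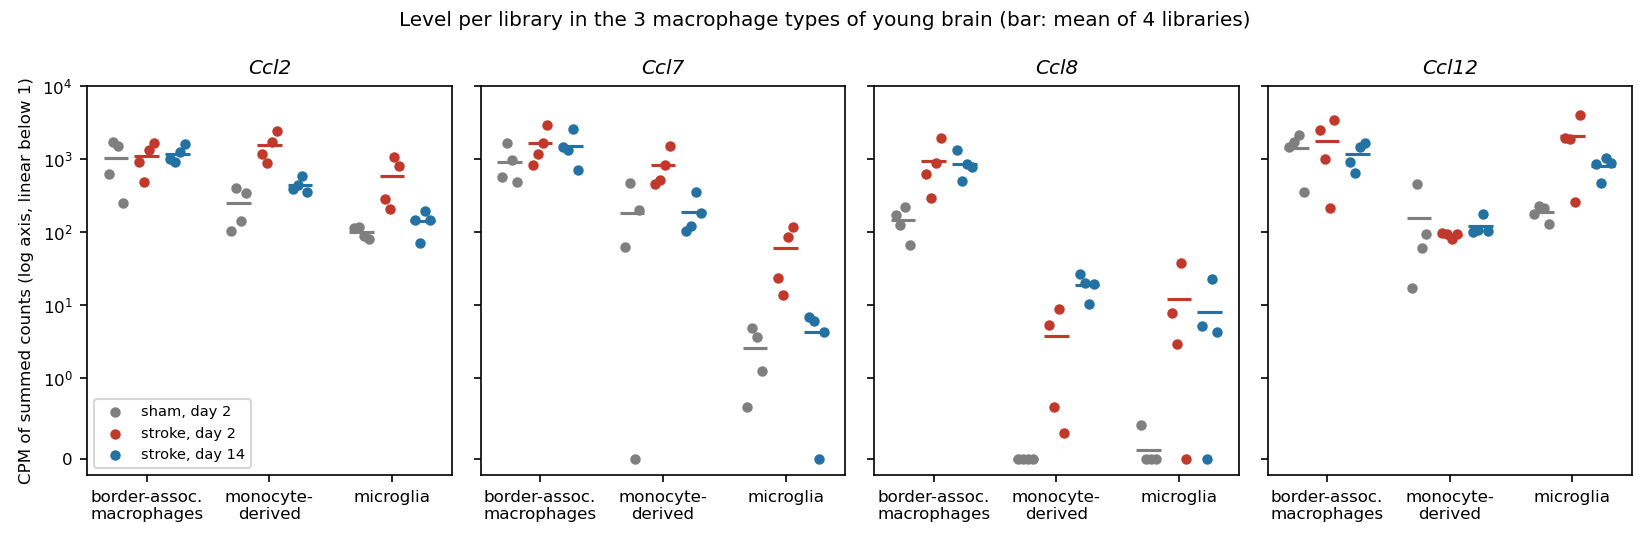
CPM of each gene per library (symmetric log axis, linear near 0) in border-associated macrophages, monocyte-derived cells and microglia of young brain, by group; points are libraries and bars the mean of 4. Microglial Ccl12 lies at 129 to 227 CPM in sham and at 259.9 to 4062 CPM in stroke day 2, whereas Ccl8 is high only in border-associated macrophages.

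Monocyte-derived cells, the infiltrating population, raised Ccl2 9.51-fold at day 2. That fold is after TMM scaling, with a median log2 change over all genes of 0.29, and is larger than the ratio of the mean CPM. Its level was 103, 405, 143 and 345 CPM in the 4 shams, 1183, 890.4, 1718 and 2412 CPM in stroke day 2, and 391, 444, 580.5 and 351 CPM in stroke day 14. No day 2 library overlapped a library of either other group, and the day 14 libraries lay within or above the sham range. The log2 change at day 2 was 3.25 ± 0.46 (edgeR adjusted p = 0.000324), at day 14 it was 1.36 ± 0.44 (adjusted p = 0.0842), and from day 2 to day 14 Ccl2 fell by 1.89 ± 0.39 (adjusted p = 0.0158).

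Ccl7, which also binds Ccr1 and Ccr3, stood at 62.1, 468, 0 and 203 CPM in sham monocyte-derived cells, at 451, 509, 828 and 1503 CPM in stroke day 2 and at 104, 120.1, 347 and 179.7 CPM in stroke day 14. Sham replicate 2 overlapped the day 2 libraries, and the log2 change of 2.67 ± 0.89 did not pass (edgeR adjusted p = 0.11); without that sham library the adjusted p was 0.0294. Ccl12 in these cells stood at 16.8, 448, 61.0 and 94.9 CPM in sham, at 96.4, 93.2, 78.7 and 94.1 CPM in stroke day 2 and at 99.4, 106, 177 and 104 CPM in stroke day 14. Its log2 change at day 2 was -0.36 ± 0.68 (edgeR adjusted p = 0.855), a value that rested on sham replicate 2: without that library it was 1.83 (adjusted p = 0.0656), and without the 5% of cells with the most counts it was 1.07 (adjusted p = 0.164). Within the sets of libraries by mitochondrial share the Ccl12 ratio was -1.22 (higher) and 2.49 (lower).

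Called genes numbered 1 of 3 in monocyte-derived cells at day 2 (7.2% of all genes called), 0 of 3 at day 14 against sham (5.9%; DESeq2 called 0, and the unadjusted p was under 0.05 for Ccl2 alone) and 1 of 3 from day 2 to day 14 (2.07%). At day 14 against sham 1 gene was called with a replicate block, with the mitochondrial share as a term or without the 5% of cells with the most counts. The sham libraries held 43 to 99 monocyte-derived cells, which limits the precision of every sham level here. The rise of Ccl2 at day 2 was 2.79 and 3.33 on the log2 scale within the sets of higher and lower mitochondrial share. Its fall from day 2 to day 14 lost its call without stroke day 2 replicate 3 or 4 or stroke day 14 replicate 1 or 4, with adjusted p values of 0.0596 without stroke day 2 replicate 3 and up to 0.0872.

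Border-associated macrophages had high Ccl2, Ccl7 and Ccl12 already in sham, and Ccl8 alone was called in them after stroke. Ccl8 stood at 169, 126, 218 and 66.6 CPM in sham, at 619, 291, 876 and 1952 CPM in stroke day 2 and at 1312, 498, 864 and 779 CPM in stroke day 14. Every stroke library was above every sham library. The log2 change at day 2 was 2.64 ± 0.52, a 6.25-fold rise (edgeR adjusted p = 0.0221), and at day 14 it was 2.56 ± 0.53 with an adjusted p of 0.0872.

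Ccl2 in border-associated macrophages stood at 620.02, 1695, 1499.7 and 249 CPM in sham, at 909, 489.7, 1326 and 1636 CPM in stroke day 2 and at 985, 909, 1233 and 1617 CPM in stroke day 14. The 3 groups overlapped, and the log2 change at day 2 was 0.04 ± 0.47. Ccl7 stood at 558, 1668, 975 and 485 CPM in sham, at 817, 1174, 1658 and 2884 CPM in stroke day 2 and at 1438, 1341, 2610.1 and 705 CPM in stroke day 14, with a change of 0.78 ± 0.47 at day 2 (edgeR adjusted p = 0.349). Ccl12 stood at 1450.4, 1708, 2156 and 349.8 CPM in sham, at 2513, 998, 210.4 and 3426 CPM in stroke day 2 and at 915, 651, 1476 and 1650.4 CPM in stroke day 14. These groups overlapped too, with a log2 change of 0.30 ± 0.68 at day 2, and the lowest values came from the libraries named above, sham replicate 4 and stroke day 2 replicate 3.

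For Ccl8, the 1 of 4 genes called at day 2, where 2.67% of all genes were, the adjusted p was 0.0533 without sham replicate 4, was above 0.05 as well without sham replicate 2 or 3 or stroke day 2 replicate 4, reached 0.0837, and was 0.0724 without the 5% of cells with the most counts. At day 14 against sham 0 of 4 genes were called (0.0762% of genes; DESeq2 called 0, and the unadjusted p was under 0.05 for Ccl8 alone), while 1 was called with rounding up per cell, a minimum of 50 cells, no low-count filter or only the compared groups. Without stroke day 2 replicate 3, which enters the shared estimate of spread, Ccl8 had an adjusted p of 0.0411. From day 2 to day 14 none of 4 was called in these cells (0.685%; 0 by DESeq2, and 0 at an unadjusted p under 0.05). Within the sets of higher and lower mitochondrial share the Ccl8 log2 ratio was 3.37 and 1.43 at day 2 and 2.58 and 2.42 at day 14.

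**Figure D2:**
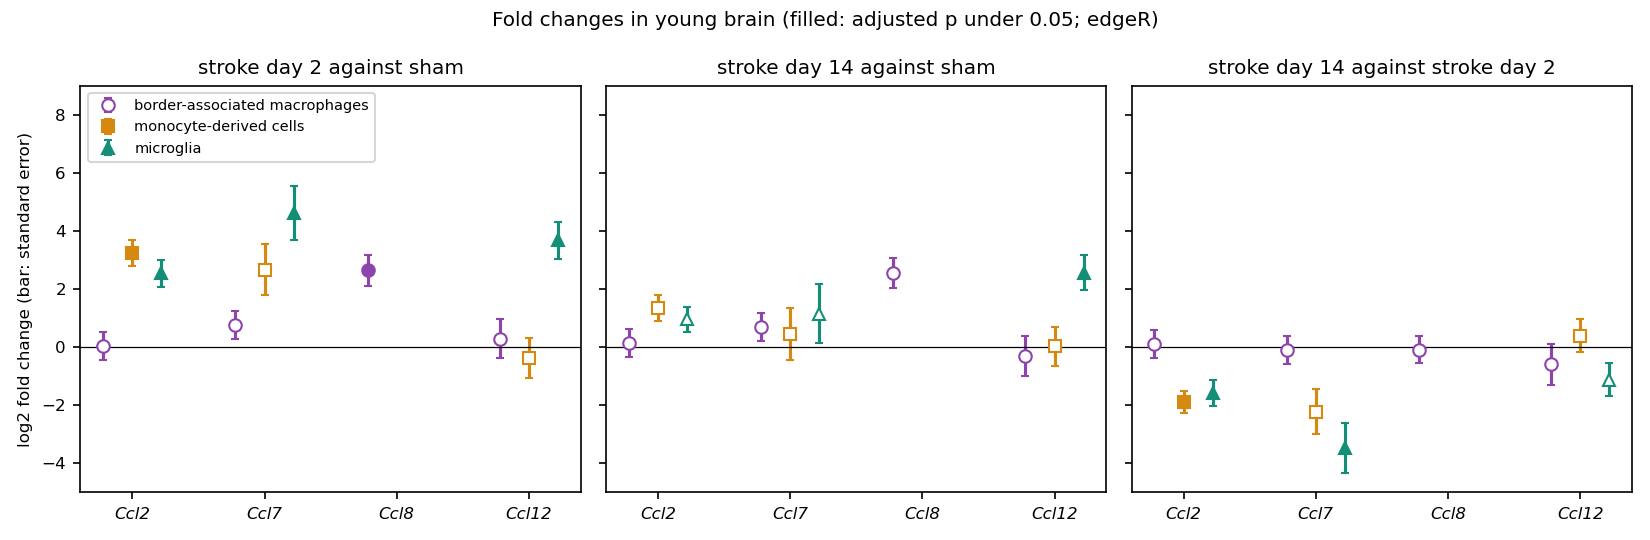
Log2 fold change with SE (edgeR) of each gene in border-associated macrophages, monocyte-derived cells and microglia for the 3 time comparisons in young brain; filled points had an adjusted p under 0.05. Ccl12 and Ccl2 of microglia lie at 3.68 and 2.54 at day 2, whereas those of border-associated macrophages lie at 0.30 and 0.04.

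The day 2 change was smaller in border-associated macrophages than in microglia for Ccl2, Ccl7 and Ccl12, by a test of the difference itself within libraries. The difference in log2 change was -2.35 ± 0.56 for Ccl2, -3.72 ± 0.44 for Ccl7 and -3.34 ± 0.49 for Ccl12 (edgeR adjusted p = 0.0278, 9.17e-10 and 0.0015), and 4.4% of all genes were called. Ccl8 had 0.09 ± 0.26 (adjusted p = 0.956), a value that turned negative under several other settings. With 1 library left out it ranged from -2.58 to 1.81, so the SE understates its uncertainty and no equality is read from it. Without stroke day 2 replicate 3 the differences for Ccl7 and Ccl12 stayed called (adjusted p = 1.03e-11 and 0.0239) and that for Ccl2 did not (-2.31, adjusted p = 0.0835). Ccl2 also lost its call without sham replicate 1, 2 or 3 or stroke day 2 replicate 1 (adjusted p up to 0.132) and with DESeq2, rounding up per cell or a minimum of 50 cells (up to 0.307), and Ccl12 lost it with rounding up (0.0533). The size of the Ccl7 difference is uncertain, since Ccl7 was scarce in sham microglia, at 2.58 CPM pooled.

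Within the same sham libraries, border-associated macrophages exceeded microglia for Ccl2 (11.4-fold) and Ccl12 (8.41-fold), with log2 differences of 3.51 ± 0.33 and 3.07 ± 0.49 (edgeR adjusted p = 5.84e-07 and 0.00226). Ccl7 was called higher as well (edgeR adjusted p = 4.65e-17). Its microglial level rests on 14.4 counts in 10874 cells, so no size is given for that difference. Ccl7 entered the comparison through border-associated macrophages, and its call against microglia adds no support. All 3 tested genes were thus called, where 36.9% of all genes were. They also exceeded monocyte-derived cells, by 2.37 ± 0.42 for Ccl2, 2.50 ± 0.32 for Ccl7 and 3.41 ± 0.69 for Ccl12 (edgeR adjusted p = 0.000834, 1.64e-06 and 0.0128; 21.4% of genes called), and the Ccl12 difference lost its call without sham replicate 3 (adjusted p = 0.106). All 6 of these calls were kept without sham replicate 4. Between monocyte-derived cells and microglia of sham, where 48.5% of genes were called, Ccl7 was called higher in the former (edgeR adjusted p = 4.92e-10). Its size is not given either, since it rests on the same microglial level. Ccl2 (1.14 ± 0.48, adjusted p = 0.0618) and Ccl12 (-0.34 ± 0.77, adjusted p = 0.768) were not called. The order of mean levels for Ccl2 in sham was border-associated macrophages at 1016 ± 693 CPM (SD, n = 4), monocyte-derived cells at 249 ± 148.5, dendritic cells at 186 ± 198 and microglia at 98.9 ± 17.9, and libraries of neighbouring types in that order overlapped.

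At day 2 after stroke monocyte-derived cells exceeded microglia 4.2-fold for Ccl2 (log2 2.07 ± 0.32, edgeR adjusted p = 9.8e-05) and 22.3-fold for Ccl7 (4.48 ± 0.24, adjusted p = 1.33e-18), while Ccl12 was 13.1-fold lower in them than in microglia (-3.71 ± 0.76, adjusted p = 0.00737). So 3 of 4 genes were called, 2 higher and 1 lower, with 43.9% of all genes called. The Ccl12 difference was -4.33 without stroke day 2 replicate 3 and had an adjusted p of 0.0516 without replicate 1. Pooled Ccl12 of monocyte-derived cells was 89.4 CPM, within the 0 to 311 CPM of 8 other brain types of that group. Endothelial cells, among those types, had none in 2491 cells, so that range sets no firm background. The size of its fold is therefore uncertain. Border-associated macrophages exceeded microglia for Ccl7 (30.6-fold, 4.94 ± 0.25, edgeR adjusted p = 1.26e-18) and Ccl8 (8.53 ± 0.97, adjusted p = 0.000332; 12.1% of genes called), but not for Ccl2 (1.08 ± 0.34, adjusted p = 0.0562) or Ccl12 (-0.40 ± 0.67, adjusted p = 0.817).

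Against monocyte-derived cells at day 2, border-associated macrophages had 9.94-fold higher Ccl12 (3.31 ± 0.77, edgeR adjusted p = 0.0305), with 17.7% of genes called. The size of that fold is uncertain too, as Ccl12 of monocyte-derived cells lay within the range of the other brain types. Ccl8 was called higher too (7.28 ± 0.73, adjusted p = 0.000103), but 17 of 7225 monocyte-derived cells and 6 of 2693 microglia had a count of it, so that it entered the comparisons between types through border-associated macrophages alone and its calls there add no support. That Ccl12 call was lost without replicate 1, 2 or 4 (adjusted p up to 0.178), with a minimum of 50 cells and with no low-count filter. Ccl2 (-0.99 ± 0.32, adjusted p = 0.0517) and Ccl7 (0.46 ± 0.20, adjusted p = 0.106) were not called. Mean Ccl2 was then 1551 ± 668 CPM in monocyte-derived cells, 1090.4 ± 499 in border-associated macrophages, 584 ± 409 in microglia and 34.5 ± 21.5 in dendritic cells (SD, n = 4 each), and the 3 macrophage types overlapped, each with the others, in their libraries. Microglia overlapped monocyte-derived cells only through replicate 3, at 1058 CPM, the doubtful library of few microglia named above.

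At day 14 border-associated macrophages were above monocyte-derived cells by 0.98 ± 0.24 for Ccl2, 2.73 ± 0.47 for Ccl7 and 2.85 ± 0.23 for Ccl12 on the log2 scale (edgeR adjusted p = 0.00591, 0.00648 and 8.87e-15, with 6.76% of genes called). Ccl8 was called higher too (5.38 ± 0.70, edgeR adjusted p = 0.00602). It was scarce in monocyte-derived cells and microglia (19.6 and 8.43 CPM pooled), so, as at day 2, its calls between types add no support. Those of Ccl2 and Ccl8 lost their call without replicate 4 and that of Ccl7 without replicate 2, with adjusted p values of 0.0667, 0.0522 and 0.0501. Border-associated macrophages exceeded microglia for Ccl2 (2.65 ± 0.24) and Ccl7 (8.00 ± 0.62) but not for Ccl12 (0.10 ± 0.21, edgeR adjusted p = 0.88), with 10.5% of genes called. Ccl8 was called as well (6.44 ± 0.72), with the limit just given. Ccl12 was called lower in monocyte-derived cells than in microglia (-2.75 ± 0.21, adjusted p = 1.02e-17), and Ccl2 and Ccl7 were called higher in them (1.67 ± 0.21 and 5.26 ± 0.59; 37.4% of genes called). Ccl7 was scarce in microglia, at 4.36 CPM pooled, and entered through the other types. Its differences from microglia are thus of uncertain size, and their calls add no support.

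Monocyte markers in microglia were also higher after stroke: the 6 markers summed to 235 to 397 CPM in sham, 520 to 4277 CPM in stroke day 2 and 2130 to 3097 CPM in stroke day 14. As a percent of the level in monocyte-derived cells of the same library, these markers stood in microglia at 3.97, 3.01 and 1.34 in stroke day 2 replicates 1, 2 and 4, and in replicate 3 they were 4277 CPM in microglia against 38879 CPM. Ccl7 stood at 5.15, 2.69, 10.4 and 7.85 percent in replicates 1 to 4, near the markers in replicates 1 to 3, and what part of the microglial Ccl7 counts comes from monocyte RNA was not tested. Ccl2 stood at 24.1, 23.0, 61.6 and 32.7 percent, above the markers in all 4 libraries. Microglial Ccl12 exceeded that of monocyte-derived cells in all 4 libraries, at 330 to 4316 percent, and the lowest was replicate 3.

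**Figure D3:**
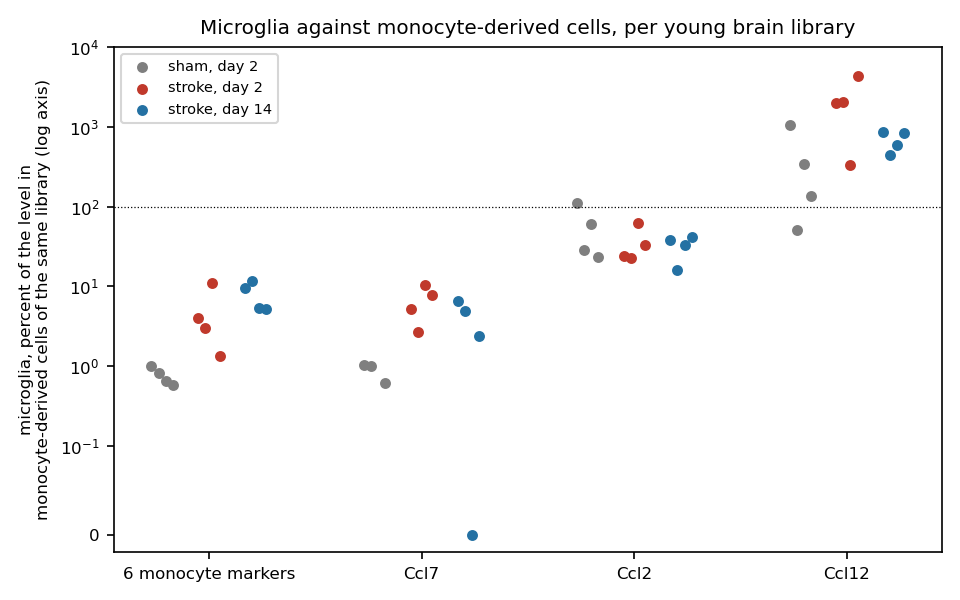
Level in microglia as a percent of that in monocyte-derived cells of the same library (log axis), for the sum of 6 monocyte markers and for Ccl7, Ccl2 and Ccl12, per young brain library; the dotted line is at 100. Ccl12 lies above the line in all stroke day 2 libraries, whereas Ccl7 lies at 2.69 to 10.4 percent in them.

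Shares of cells with a count are given beside the summed levels. Among young microglia, 7.07% of sham, 52.1% of stroke day 2 and 27.5% of stroke day 14 cells had a Ccl12 count, at median depths of 437, 661 and 1266 counts per cell, and after thinning each cell to 300 counts the shares were 4.56%, 30.8% and 14.2%. Among monocyte-derived cells 6.92%, 39.4% and 19.2% had a Ccl2 count, at depths of 452, 1180 and 1169, with thinned shares of 4.53%, 22.3% and 8.72%. In T, B and NK cells, which are not known for these genes and had median depths of 292 to 371, 364 to 532 and 477 to 826, the shares were 0.578%, 1.40% and 0.745% for Ccl2 and 0.385%, 3.35% and 0.149% for Ccl12. The shares in microglia and monocyte-derived cells thus lay well above that background.

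Ccl8 counts were present in 5.11%, 21.3% and 13.6% of border-associated macrophages in the 3 groups, at median depths of 502, 622 and 652 and with thinned shares of 1.87%, 12.4% and 8.72%, against 0%, 0.279% and 0.149% of lymphocytes. Ccl7 counts in microglia were found in 0.120%, 5.87% and 0.464% of cells, against 0.193%, 0.838% and 0% of lymphocytes. The sham value of lymphocytes is 1 of 519 cells, which held 19.1 counts, so it is a poor measure of background. In monocyte-derived cells a Ccl7 count was present in 2.20% of sham and 18.03% of stroke day 2 cells (0.755% and 10.2% thinned) and in 6.52% at day 14. Ccl12 in the same cells was present in 2.52% of sham and 7.09% of stroke day 2 cells (1.13% and 2.09% thinned), while its pooled level was 139.7 and 89.4 CPM, and no order is read from these. Lymphocytes, at lower depths, had a Ccl12 count in 0.385% and 3.35% of cells. No test was made on shares of cells.

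Brain endothelial cells, which line the vessels that monocytes cross, held almost none of these transcripts. Pooled over young libraries, Ccl2 stood at 1.49, 5.67 and 3.07 CPM in sham, stroke day 2 and stroke day 14, and Ccl7 at 1.57, 4.84 and 1.90 CPM, in 1779, 2491 and 1610 cells. Ccl12 summed to 2.2e-14 and 1.1e-08 counts in endothelial cells of sham and stroke day 2, taken as none. Against a floor of 3 counts over the group, it was at least 2213-fold higher in microglia of stroke day 2, and at day 14 endothelial Ccl8 had no count and was at least 405-fold higher in border-associated macrophages. These bounds cover counting error only, and not the step that made the deposited counts fractional. In the tests within libraries 2 of 3, 3 of 4 and 2 of 4 genes were called lower in endothelial cells than in microglia in sham, stroke day 2 and stroke day 14 (67.9%, 47.9% and 56.4% of all genes called in either direction). The endothelial cells of the 4 shams held at most 1.36 counts of any of these genes in all, too few to show whether the day 2 effect differed from that of microglia, and no difference was called (9.52% of genes called; DESeq2 called 1 of the 4, and the unadjusted p was under 0.05 for 1).

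In the code DC of brain (dendritic cells, which present antigen), the 6 dendritic markers summed to 1414 CPM and the 6 monocyte markers to 6376. Ccl2 in it stood at 92.1, 481, 60.5 and 112 CPM in sham, at 40.5, 4.08, 54.9 and 38.5 CPM in stroke day 2 and at 14.7, 17.7, 1.59 and 33.0 CPM in stroke day 14. All stroke libraries were below all shams. The change was -2.54 ± 0.85 at day 2 (edgeR adjusted p = 0.18) and -3.69 ± 0.90 at day 14 (adjusted p = 0.0718), and neither was called, with 1.56% and 1.92% of genes called. The unadjusted p was under 0.05 for both, and DESeq2 called Ccl2 at day 14 and not at day 2. From day 2 to day 14 it was not called either (1.26% of genes; 0 by DESeq2, and 0 at an unadjusted p under 0.05).

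Summed over all cells of a library, the main source differed between genes, and for Ccl2 and Ccl7 also between sham and stroke day 2. In sham, microglia gave a mean of 57.7% of the Ccl2 counts and 67.4% of the Ccl12 counts at 72.2% of the cells, whereas border-associated macrophages gave 33.6% of Ccl2, 81.5% of Ccl7, 97.5% of Ccl8 and 30.5% of Ccl12 at 3.81% of the cells. Over the sham libraries the share of Ccl2 ranged from 33.6% to 86.0% for microglia and from 3.96% to 55.0% for border-associated macrophages, whose counts exceeded those of microglia in replicates 2 and 3, and the doubtful replicate 4 had 4.61 counts in these macrophages. At day 2 monocyte-derived cells, then 49.9% of the cells, gave 85.2% of the Ccl2 counts (63.2% to 97.2% over libraries) and 89.7% of the Ccl7 counts (72.8% to 96.3%). Microglia gave 66.0% of the Ccl12 counts at 17.3% of the cells, but the range over libraries was 2.41% to 91.7%, and the lowest was again replicate 3.

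By day 14 monocyte-derived cells gave 59.2% of Ccl2 and 67.1% of Ccl7, microglia 87.2% of Ccl12, and border-associated macrophages 48.6% of Ccl8. Since cells were sorted and mixed before capture, these shares depend on the sort and are not shares of the tissue.

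**Figure D4:**
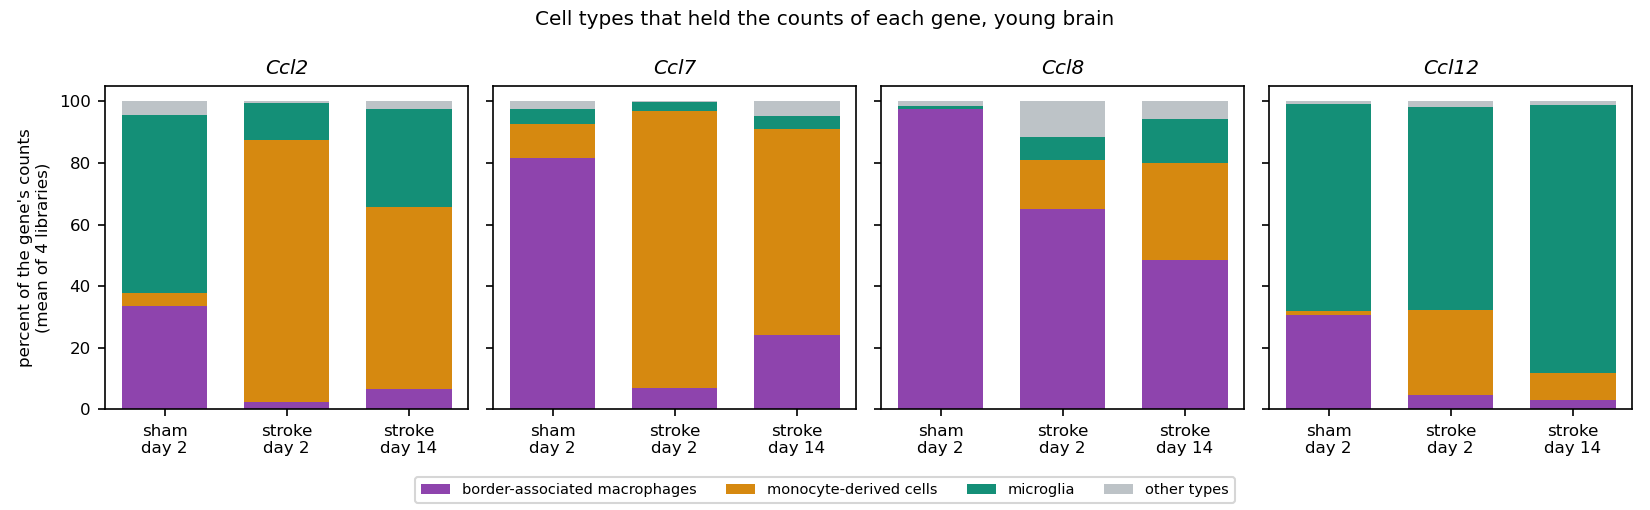
Mean percent of the counts of each gene that came from each cell type in young brain libraries, by group (4 libraries each, stacked to 100 percent). Monocyte-derived cells fill 85.2 percent of the Ccl2 bar at stroke day 2, and microglia 66.0 percent of the Ccl12 bar.

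The deposited annotation splits each type into numbered subtypes, known here only by these codes. The subtypes were defined on these cells, so their levels are given as a description with no test. Among microglia of stroke day 2, pooled Ccl12 was 264 CPM in Mg1 (335 cells), 685 in Mg2, 7969 in Mg3 (133 cells), 3459 in Mg4 (1034 cells) and 3470 in Mg5 (911 cells). Ccl2 followed the same order for the extremes, with 64.6 CPM in Mg1 and 1493 in Mg3, and Ccl7 was 217 CPM in Mg3, 126 in Mg4 and 58.6 in Mg5.

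In sham, Mg1 and Mg2 made up most microglia, 5826 and 4043 cells, with Ccl12 at 97.7 and 195 CPM. The few sham cells in Mg3 (93) and Mg4 (124) already had 2387 and 829 CPM of Ccl12. At day 14 Mg3 held 3415 cells, and its Ccl12 was 996 CPM and its Ccl2 155.5 CPM, below the levels of the same code at day 2.

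Among monocyte-derived cells of stroke day 2, Ccl2 was 1905 CPM in MdC1 (2267 cells), 1742 in MdC2 (2082 cells) and 2329 in MdC4 (914 cells), but 232 in MdC3 (1064 cells), 574 in MdC5 and 596 in MdC6. Ccl7 ran in parallel, at 1246, 724 and 1125 CPM in MdC1, MdC2 and MdC4 and at 33.1 in MdC3. MdC3 made up most of the sham monocyte-derived cells (243 cells), where Ccl2 was 36.1 CPM and no Ccl7 count was found. At day 14 MdC4 (716 cells) had 930.3 CPM of Ccl2, while MdC6 (985 cells) had 262 CPM. The subtype makeup thus differed between groups alongside the levels of the whole type.

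Ccl8 was unevenly spread over border-associated macrophages as well. In sham it stood at 191 CPM in BAM1 (267 cells), 17.8 in BAM2 (202 cells) and 58.8 in BAM3 (96 cells), and at day 2 at 1224, 223 and 2419 CPM in these and at 2334 CPM in BAM4 (96 cells). By day 14 BAM1 (73 cells) had 2685 CPM and BAM2 (108 cells) had 70.7 CPM. BAM2 was also the lowest for Ccl12 at day 2, with 386 CPM against 3392 in BAM1.

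**Figure D5:**
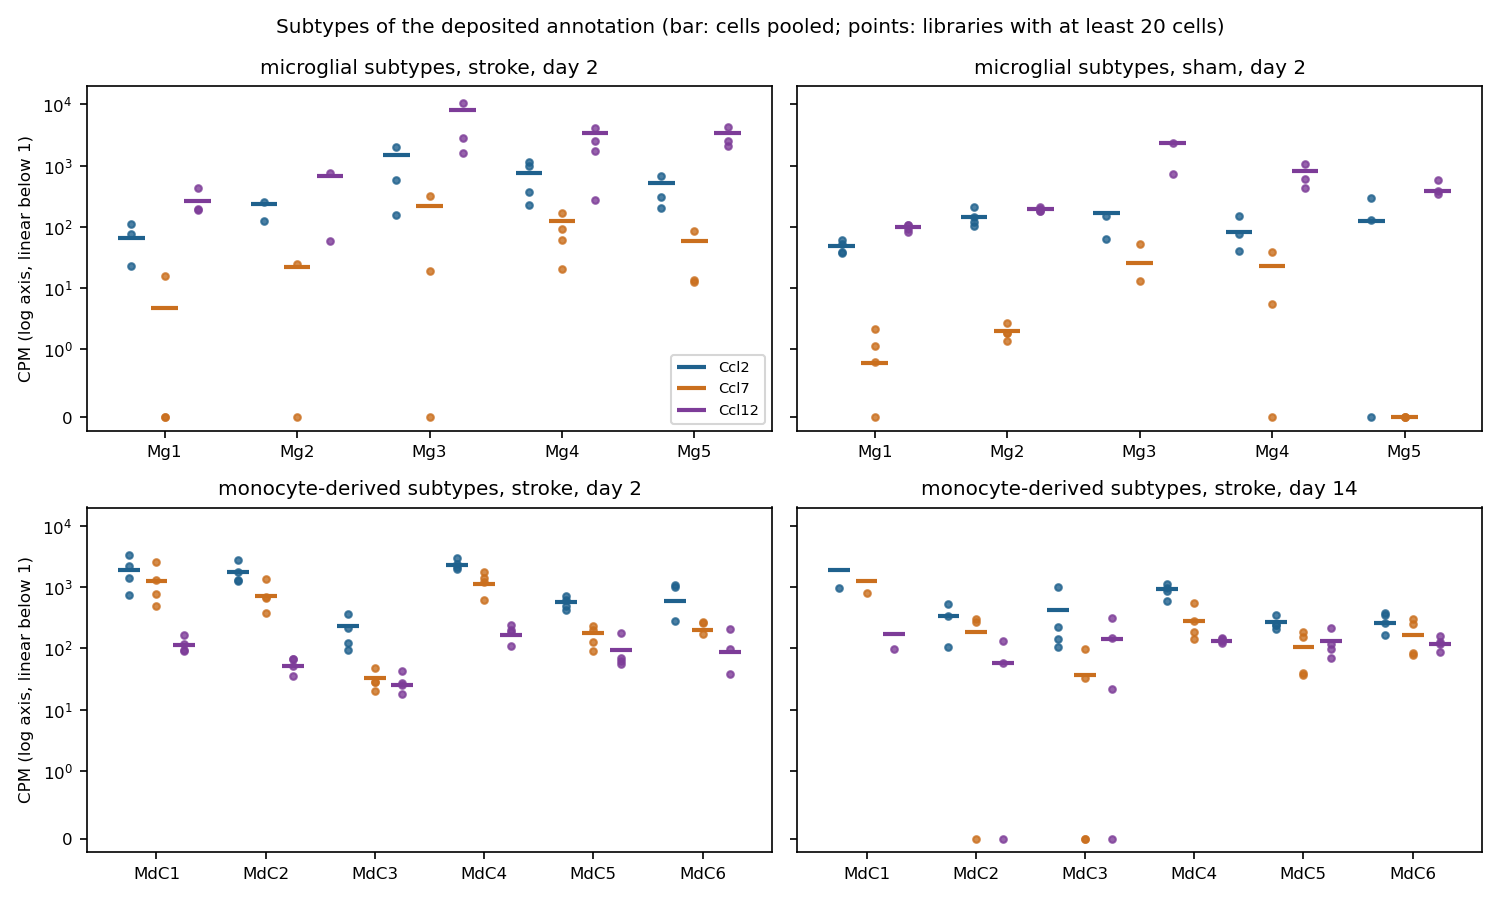
CPM of Ccl2, Ccl7 and Ccl12 (symmetric log axis) in microglial subtypes of sham and stroke day 2 and in subtypes of monocyte-derived cells of stroke day 2 and day 14; bars are pooled cells of subtypes with at least 50 cells and points are libraries with at least 20. Mg3 to Mg5 have the highest Ccl12 at day 2, and MdC3 has the lowest Ccl2 of the day 2 subtypes, at 232 CPM.

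Some pairs of these transcripts were often found in the same cell, and others seldom. At day 2, 81.7% of the 1303 monocyte-derived cells with a Ccl7 count also had a Ccl2 count, against 30.1% of the 5922 without, at median depths of 1512 and 1089 counts. Of the 2845 monocyte-derived cells with Ccl2, 37.4% had Ccl7, 11.4% Ccl12 and 0.422% Ccl8. Of 726 microglia with a Ccl2 count 16.4% had Ccl7, none had Ccl8 and 81.4% had a Ccl12 count, against 41.3% of the other 1967, but the cells with Ccl2 were deeper (1770 against 594 counts). Of the 125 border-associated macrophages with Ccl7, 60.0% had Ccl2, against 25.4% of the rest, at median depths of 655 and 642. Split by another gene these cells differed in depth too, for Ccl2 with medians of 1150.4 and 504. These cells are not replicates, and no test was made.

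In blood, Ccl2 of monocytes stood at 9.48, 11.8, 15.5 and 8.29 CPM in sham, at 10.7, 63.9, 50.4 and 12.3 CPM in stroke day 2 and at 19.2, 18.6 and 33.5 CPM in stroke day 14. The day 2 libraries overlapped the shams and the day 14 libraries did not. The log2 change was 1.36 ± 0.54 at day 2 and 1.04 ± 0.55 at day 14 (edgeR adjusted p = 1 and 0.995), with 0% and 0.311% of genes called, 1 and 0 unadjusted p values under 0.05 for this gene, and no call of it by DESeq2.

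Brain monocyte-derived cells exceeded blood monocytes of the same group 69.7-fold for Ccl2 at day 2 (log2 6.12 ± 0.54, edgeR adjusted p = 4.53e-07; 28.5% of genes called) and 23.0-fold at day 14 (4.52 ± 0.56, adjusted p = 2.14e-05; 17.9% called). No brain library overlapped a blood library. Brain and blood were dissociated and sorted differently, and tissue and preparation cannot be told apart.

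In aged brain the same genes were high after stroke, but none passed the test of 3 stroke against 2 sham libraries when all libraries were in the fit. Microglial Ccl12 stood at 278 (female) and 451 (male) CPM in sham and at 3946, 2951 and 1894 CPM in the stroke day 2 libraries (female, female, male), with no overlap and a log2 change of 3.09 ± 0.92 (edgeR adjusted p = 0.11). Aged and young libraries share an estimate of spread, and without young stroke day 2 replicate 3 the same change was called (adjusted p = 0.00712); over all left-out libraries its adjusted p ranged up to 0.418. In monocyte-derived cells Ccl2 stood at 0 and 489 CPM in sham (52 and 33 cells) and at 3668, 2674 and 1499.96 CPM in stroke, a change of 4.17 ± 1.07 (edgeR adjusted p = 0.0635). Ccl7 had no count in either aged sham and stood at 2623, 2096 and 859.95 CPM in stroke.

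The counts called were 0 of the tested genes in aged microglia (2.6% of all genes called; DESeq2 called 1, and 2 had an unadjusted p under 0.05) and 0 in aged monocyte-derived cells (2.94%; 3 unadjusted, 2 by DESeq2). The stroke effect did not differ by a call between aged and young in either type (0% of genes called; 0 and 2 unadjusted p values under 0.05; 0 by DESeq2). For microglial Ccl12 the difference of the effects, aged minus young, was -0.68 with a 95% interval from -2.67 to 1.32 on the log2 scale, so that a difference of several-fold either way lies within it. In monocyte-derived cells it was 0.87 for Ccl2, 11.1 for Ccl7 and 4.69 for Ccl12 (edgeR adjusted p = 0.956, 0.835 and 0.83). The aged shams held few of these cells and no Ccl7 count in them, so these sizes are not reliable. No gene was called between aged and young libraries of the same surgery at day 2, in microglia (0.027% of all genes called in sham, 0% in stroke), monocyte-derived cells (0% in both) or border-associated macrophages (0% in stroke); DESeq2 called 0, and 1 unadjusted p was under 0.05, that of Ccl12 in monocyte-derived cells after stroke. In aged endothelial cells the 1 gene tested, Ccl7, was not called by edgeR or DESeq2 against aged sham (0.909% of genes) or against young stroke (0.0303%), with 0 unadjusted p values under 0.05. In the single aged library of day 14, Ccl12 in microglia was 765 CPM and Ccl2 106 CPM.

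Of the 6 receptors and scavengers that bind these ligands, 3 were tested in each brain macrophage type. Ccr2, the main receptor, marked monocyte-derived cells, with 2444 ± 608 CPM in sham, 1221 ± 237 in stroke day 2 and 1433 ± 532 in stroke day 14 (SD, n = 4), and microglia had means of 3.37, 10.5 and 3.70 CPM. Its change in monocyte-derived cells at day 2 was -0.48 ± 0.28 (edgeR adjusted p = 0.372). In border-associated macrophages 0 of 3 genes of the list was called at day 2, where 2.67% of all genes were, and the change of Ccr2 in them was -1.93 ± 0.97 (edgeR adjusted p = 0.268).

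In blood monocytes Ccr2 stood at 2742 ± 538, 3048 ± 1503 and 2479 ± 116 CPM in sham, stroke day 2 and stroke day 14, and brain monocyte-derived cells of day 2 were lower by 1.02 ± 0.30 on the log2 scale (edgeR adjusted p = 0.017). Ackr1, which binds these chemokines on venular endothelium without signalling, stood in brain endothelial cells at 40.5 ± 51.2 CPM in sham, 354 ± 76.1 in stroke day 2 and 110 ± 127 in stroke day 14. Its day 2 change of 2.83 ± 0.89 did not pass (edgeR adjusted p = 0.0633).

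Among 15 other CC ligands, 6 were tested in microglia, and 3 rose at day 2: Ccl5, a T cell attractant (5.36 ± 0.81), Ccl9 (1.51 ± 0.36) and Ccl6 (0.88 ± 0.26), with edgeR adjusted p = 0.000744, 0.0059 and 0.0207, where 15.3% of all genes were called higher. The list had a median log2 change of 0.78, against -0.05 over all genes. From day 2 to day 14 Ccl5 and Ccl6 rose further (2.46 ± 0.61 and 1.63 ± 0.27, edgeR adjusted p = 0.0331 and 0.00213), where 3.57% of all genes were called higher. In border-associated macrophages 2 of 5 rose at day 2, Ccl6 (1.98 ± 0.40) and Ccl9 (1.63 ± 0.40), where 1.75% of all genes were called higher, and in monocyte-derived cells 0 of 6 was called in either direction, where 7.2% of all genes were.

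The third list held 15 inducers and signalling genes upstream of these ligands, of which 13 were tested in microglia and in monocyte-derived cells and 6 in border-associated macrophages. At day 2 microglia had 2 called lower, Jun (-2.61 ± 0.78) and Nfkb1 (-1.12 ± 0.30), which belong to the AP-1 and NF-kB families (edgeR adjusted p = 0.027 and 0.0123), where 15.9% of all genes were called lower. The list median was -0.66, against -0.05 over all genes. Monocyte-derived cells and border-associated macrophages had 0 of 13 and 0 of 6 called at day 2, where 7.2% and 2.67% of all genes were. At day 14 Fos, another AP-1 gene, was higher than in sham in monocyte-derived cells (0.99 ± 0.28, edgeR adjusted p = 0.0396), where 4.79% of all genes were called higher. It is a single gene of the 13 tested, and nothing is read from it about the list.

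Brain monocyte-derived cells of day 2 differed from blood monocytes in genes of all 3 lists, where 28.5% of all genes were called in either direction. The genes named here were picked for large changes and do not describe the lists as wholes. The receptor Ccr1 was higher (1.67 on the log2 scale, edgeR adjusted p = 0.000989), as were 3 of 5 other ligands, where 15.4% of all genes were called higher. Further examples were Il1b (6.74), Tnf (4.86), Ccl4 (7.29) and Ccl3 (4.06), with edgeR adjusted p = 0.000192, 5.82e-05, 4.16e-07 and 1.45e-05 for these log2 differences. The first pair encodes inflammatory cytokines and the last pair other CC chemokines, and tissue and preparation cannot be told apart here either.

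Over 27 profiles (means per cell type and young brain group), the genes with the pattern most like Ccl2, by Pearson r of log2(CPM + 1) among 6461 genes, were Clec4a3 (0.889), Ccl9 (0.872), Msr1 (0.850) and Fcgr2b (0.849). For Ccl7 they were Pf4 (0.930), F13a1 (0.898), Msr1 (0.844) and Cbr2 (0.843), and for Ccl8 they were Folr2 (0.921), Fcna (0.898), Cbr2 (0.897) and Ccl24 (0.865). Ccl12 was most like Adgre1 (0.896), Fcgr1 (0.876), Tbxas1 (0.856) and Clta (0.850). These lists depend on the pseudocount: at 10, 3 of the 4 genes stayed for Ccl2 and for Ccl8 and 2 of the 4 for Ccl7 and for Ccl12. Pf4, F13a1 and Cbr2 were among the markers of border macrophages used above. Among the 4 genes themselves Ccl2 with Ccl7 had r = 0.872 and the other pairs 0.616 to 0.715. Profiles of 1 library share its animals and depth, and these values are a description.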

How the data were processed

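Per the labels' protocols, cells were captured by Drop-seq, and per the submitters' processing notes the build was mm10 and Seurat was used; the aligner and the counter are not given in the sources used here. The authors deposited expected counts per gene and cell (0.320% to 4.81% of non-zero values per library exactly whole), the percent of mitochondrial counts per cell and cell type codes. A cell was taken to have a count of a gene at 0.5 or more. Every deposited cell was kept, and counts were summed per library and parent type (at least 20 cells), rounded and tested with edgeR 4.0.16 (quasi-likelihood, robust, TMM scaling, filterByExpr, Benjamini-Hochberg over all genes tested, called at an adjusted p under 0.05). Comparisons of types within libraries had the library as a block. The SE is the absolute log2 change divided by the square root of the F statistic, and it is unsure for genes with few counts. Libraries are pools of animals, and p-values measure the spread between pools. Scrublet (scanpy 1.11.5) marked 0% to 0.225% of cells per library and was taken not to have worked, so doublets remain, and an added alternative left out the 5% of cells with the most counts of each type. Young and aged brain and blood tables hold 19704, 27514 and 16623 genes, and comparisons across them used shared genes. Replicate numbers did not clearly pair libraries: same-numbered libraries had a median correlation of deviations of 0.0977 in microglia (-0.393 to 0.607) and 0.0922 in monocyte-derived cells (-0.125 to 0.808). Libraries of other numbers had lower medians, 0.0235 and 0.00835, with overlapping ranges. On simulated data the fit recovered 77% (microglia), 85% (border-associated macrophages) and 83% (types within libraries) of genes changed by 2 on the log2 scale, and 8%, 32% and 29% of those changed by 1. False calls numbered 5, 9 and 4. The changed genes all had a mean above 20 counts in a library of median size, so this recovery does not cover scarcer genes. Named genes were the 4 members, and of 3 lists (6 receptors and scavengers, 15 other CC ligands, 15 inducers) up to 4 called genes of the largest change with at least 20 CPM, with Ccr2 and Ackr1 always; some called genes of the lists are not reported here. The members and lists were chosen with earlier results of these data known. Alternatives were DESeq2 1.42.0, no TMM, no low-count filter, each library left out, a replicate block, fewer groups in the fit, rounding up per cell, 50 cells at least, sex as a term and, added after seeing the data, the mitochondrial share as a term.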

Additional observations from a re-analysis of the deposited data

Results flagged for a closer look

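Ccl12 in monocyte-derived cells of young stroke day 14 was far higher in replicate 3, at 177 CPM (749 cells), than in the other 3 libraries, at 99.4 to 106 CPM. The gap to the nearest library was 0.911 of the whole range and passed Dixon's 95% limit for 4 samples. Chance alone flags about 1 in 20 such groups, and 36 groups were examined.

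The day 2 stroke effect differed between border-associated macrophages and microglia in a test of the difference for 3 genes: by -2.35 on the log2 scale for Ccl2, by -3.72 for Ccl7 and by -3.34 for Ccl12. The calls of Ccl2 and Ccl12 were lost under alternatives given above, that of Ccl2 also without stroke day 2 replicate 3. The Ccl7 difference rests on a scarce sham microglial level, so its size is uncertain.

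The single aged library of stroke day 14, which enters no test, had Ccl12 at 765 CPM in 1804 microglia, above the 278 to 451 CPM of the aged shams.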

How the results depend on the processing

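Single genes were followed under the alternatives in 89 tests, which leave out comparisons of endothelial cells and of aged against young libraries. Of these tests 38 were called. Of the calls 26 were kept under all alternatives, 27 under every left-out library and 31 under every other alternative. None of the 38 changed sign. Of the 51 not called, 17 changed sign under some alternative. The cause of these changes was not tested. The numbers of the 4 genes called moved as follows. With DESeq2 they were 2 in monocyte-derived cells at day 2, 2 in microglia at day 14 against sham, 1 in dendritic cells at day 14, 2 and 1 in aged monocyte-derived cells and aged microglia, and 1 for the effect in endothelial cells minus microglia. With the mitochondrial share as a term they were 2 in monocyte-derived cells at day 2, 1 at day 14 against sham and 2 from day 2 to day 14, and 2 in microglia at day 14 against sham. Without the 5% of cells with most counts they were 2 and 1 in monocyte-derived cells at day 2 and day 14, 0 in border-associated macrophages at day 2, 1 in microglia from day 2 to day 14, 2 for monocyte-derived cells against microglia in sham, 3 in aged monocyte-derived cells and 1 for aged against young stroke in them. With no low-count filter they were 2 and 0 in microglia at day 14 against sham and against day 2, 1 in border-associated macrophages at day 14, 1 in dendritic cells at either time and 2 for monocyte-derived cells against microglia in sham. With only the compared groups they were 2 and 0 in microglia at day 14 against sham and against day 2, and 1 each in border-associated macrophages at day 14, aged microglia and aged monocyte-derived cells. With rounding up they were 1 each in microglia from day 2 to day 14, in border-associated macrophages at day 14 and for the effect in border-associated macrophages minus microglia. With 50 cells at least they were 1 in border-associated macrophages at day 14 and 1 for these against monocyte-derived cells at day 2, and without TMM 1 in aged microglia.

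Replicate numbers did not clearly pair the libraries (a library's best partner had its own number in 16 of 48 cases for microglia and for border-associated macrophages, 18 for endothelial cells and 20 for monocyte-derived cells). The replicate block changed the count from 2 to 0 in microglia from day 2 to day 14, from 0 to 1 in monocyte-derived cells at day 14 against sham, and gave Ccl8 in border-associated macrophages from day 2 to day 14 a log2 change of 0.055.

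Signs turned in tests that were not called. In border-associated macrophages from day 2 to day 14, Ccl2 had -0.24 with 50 cells at least and -0.24 with no filter, Ccl7 0.045 with the mitochondrial term and 0.077 without the top 5% of cells, and Ccl8 0.047 and 0.21 under those. At day 14 against sham Ccl2 had -0.16 with no filter, and at day 2 -0.11 with rounding up and -0.0072 with only the compared groups. Ccl12 in monocyte-derived cells had 0.055 at day 2 with rounding up and 1.07 without the top 5%, -0.021 from day 2 to day 14 with rounding up, and at day 14 against sham -0.11 with DESeq2, -0.019 with 50 cells, -0.34 without TMM and -0.20 with only the compared groups. The Ccl8 effect in border-associated macrophages minus microglia was -0.61 with rounding up, -2.05 with DESeq2, -0.089 with no filter and -0.15 without the top 5%. Between types, Ccl8 of monocyte-derived cells against microglia at day 2 was -0.90 with DESeq2, and Ccl12 of border-associated macrophages against microglia at day 14 was -0.042 with no filter.

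With each library left out in turn, log2 changes ranged in border-associated macrophages from -0.29 to 0.35 (Ccl2) and -0.26 to 0.76 (Ccl12) at day 2, from -0.16 to 0.49 (Ccl2) at day 14 against sham, and from -0.082 to 0.40 (Ccl2), -0.46 to 0.37 (Ccl7) and -0.41 to 0.59 (Ccl8) from day 2 to day 14. In monocyte-derived cells they ranged from -0.88 to 1.83 (Ccl12) at day 2 and from -0.48 to 2.16 (Ccl12) and -0.093 to 2.00 (Ccl7) at day 14 against sham. Between types they ranged from -2.32 to 0.27 for Ccl12 of monocyte-derived cells against microglia in sham, -0.53 to 2.48 for Ccl8 of these at day 2, -0.11 to 0.22 for Ccl12 of border-associated macrophages against microglia at day 14, and -2.58 to 1.81 for the Ccl8 effect in border-associated macrophages minus microglia. The effect in aged minus young ranged in microglia from -3.19 to 5.30 (Ccl7) and -2.67 to 3.42 (Ccl8), and in monocyte-derived cells from -0.055 to 10.96 (Ccl2). Genes called ranged from 0 to 1 in border-associated macrophages at day 2 and day 14, monocyte-derived cells at day 14 against sham and from day 2 to day 14, and aged microglia, from 1 to 2 in monocyte-derived cells at day 2, microglia at day 14 against sham, sham monocyte-derived cells against microglia and day 2 border-associated macrophages against monocyte-derived cells, from 0 to 2 in microglia from day 2 to day 14, from 0 to 3 in aged monocyte-derived cells and from 2 to 4 in day 14 border-associated macrophages against monocyte-derived cells. Low cell numbers, 43 to 99 monocyte-derived cells per sham library and 20 to 282 border-associated macrophages per library, limit these values.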
